A study of Mus musculus with 9 samples.

Results

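The EGF receptor family was followed here as 10 genes, out of 55704 genes with a value in the deposited table: the receptors Egfr, Erbb2, Erbb3 and Erbb4, the ligands Hbegf, Tgfa, Areg, Btc and Nrg1, and Lrig1. They were chosen by symbol and found through their Ensembl identifiers, and each had a value in all 9 libraries. The cells were NSCs (neural stem cells) grown from the subventricular zone (SVZ) of C57BL/6 mice that were 8 to 9 weeks old, with 2 female and 2 male mice pooled for an isolation, and they had been passaged before they were plated on poly-L-ornithine and laminin. There were 3 groups of 3 libraries, described by the submitters as biological replicates. bFGF/EGF-treated NSCs were proliferating cells collected at day 0, 16 to 18 h after plating. bFGF/BMP4-treated NSCs had EGF exchanged for BMP4, and BMP4-treated NSCs had both growth factors exchanged for BMP4, and these 2 groups were collected at day 6. Each factor was used at 20 ng/ml. All groups started in medium with EGF, and only the bFGF/EGF medium still held it at collection. Loss of EGF, exposure to BMP4 and time in culture therefore cannot be told apart in a comparison with that group. For BMP4 against bFGF/EGF, loss of bFGF is a further difference that cannot be told apart from these. The comparison of BMP4 with bFGF/BMP4, both at day 6, is that of bFGF removal.

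EGF receptor family members are tyrosine kinases that pair with themselves or with each other once a ligand binds. HB-EGF, TGF-alpha, amphiregulin and betacellulin bind EGFR, neuregulins bind ERBB3 and ERBB4, ERBB2 binds no ligand of its own, and ERBB3 has little kinase activity. The receptors signal through RAS and ERK, and LRIG1 is a membrane protein that lowers the amount of receptor. In the SVZ, EGFR marks activated stem cells and their progeny, and EGF is the usual mitogen of such cells in culture.

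Levels are given as FPKM (fragments per kilobase of gene scaled to the size of the library), which allows genes of different length to be compared. The libraries held 15902184 to 17437610 fragments on genes, a number recovered from the steps between FPKM values. Tests used limma on log2(FPKM + 0.1) over 20207 genes with a mean of at least 0.1 FPKM, and a gene was called at an adjusted p of at most 0.05 together with a change of at least 2-fold. The p-values measure the spread between these libraries. In bulk RNA, fewer cells with a transcript and less of it per cell cannot be told apart. Sox2, which marks neural stem cells, averaged 167 ± 36, 137 ± 12 and 137 ± 13 FPKM (SD, n = 3) in bFGF/EGF, then bFGF/BMP4, then BMP4. Nes, the stem cell filament nestin, averaged 151 ± 6.4, 3.55 ± 0.52 and 15.8 ± 5.0 FPKM in the same order. Slc1a3 averaged 73.6 ± 8.3, 130 ± 19 and 113 ± 8.5 FPKM, Prom1 0.66 ± 0.15, 0.151 ± 0.036 and 2.49 ± 1.1, and Fabp7 655 ± 59, 272 ± 28 and 484 ± 100. Of these 5 stem cell markers, 0 were called higher and 3 lower in bFGF/BMP4 than in bFGF/EGF. In BMP4 1 was higher and 1 lower than in bFGF/EGF, and 2 were higher and 0 lower than in bFGF/BMP4. Gfap, an astrocyte filament that quiescent stem cells also carry, averaged 0.0926 ± 0.038, 19.4 ± 2.4 and 2570 ± 440 FPKM. Of 6 astrocyte markers, 5 were called higher and Aldh1l1, a folate enzyme gene, lower in each day 6 group than in bFGF/EGF. Aldh1l1 averaged 135 ± 25, 24.2 ± 0.61 and 58.1 ± 6.7 FPKM. In BMP4 against bFGF/BMP4, 3 of these astrocyte markers were higher and 2 lower. The latter were the glutamate transporter gene Slc1a2 (65.5 ± 12 against 175 ± 18 FPKM) and the connexin gene Gjb6 (0.238 ± 0.15 against 2.96 ± 1.2). Of all genes tested, 16.5% were called higher and 14.1% lower in bFGF/BMP4 than in bFGF/EGF. The shares were 21.3% and 15.4% for BMP4 against bFGF/EGF, and 8.41% and 5.14% for BMP4 against bFGF/BMP4.

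Egfr and Areg were the members that fell in both BMP4-containing media, and Lrig1 was the member that rose with bFGF/BMP4 and not with BMP4 alone, so the stretches just before their annotated starts are shown. The sequences are from RefSeq promoters of GRCm38.p6, which gave an entry for 7 of the 10 members, and they were placed on GRCm39 by an exact match. Each runs 5′ to 3′ on the strand of the gene and stops where an annotated exon begins. Capitals mark a match to any of 5 motifs searched on both strands: the GC box GGGCGG, the BMP-responsive element GGCGCC, the AP-1 site TGANTCA, the cyclic AMP element TGACGTCA and the TATA box TATAAA.

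Egfr, chr11:16701953-16702197, plus strand, 245 bases:
Egfr: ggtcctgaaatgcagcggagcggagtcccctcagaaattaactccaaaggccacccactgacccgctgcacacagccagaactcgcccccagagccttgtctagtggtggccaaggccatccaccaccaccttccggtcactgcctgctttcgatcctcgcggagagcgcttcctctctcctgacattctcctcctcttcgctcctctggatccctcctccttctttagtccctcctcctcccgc
Areg, chr5:91287208-91287450, plus strand, 243 bases:
Areg: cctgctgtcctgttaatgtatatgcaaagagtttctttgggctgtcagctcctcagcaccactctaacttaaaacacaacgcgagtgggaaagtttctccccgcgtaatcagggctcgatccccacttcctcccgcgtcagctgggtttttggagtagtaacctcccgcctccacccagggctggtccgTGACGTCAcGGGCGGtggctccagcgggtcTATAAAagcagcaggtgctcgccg
Lrig1, chr6:94677243-94677376, minus strand, 134 bases:
Lrig1: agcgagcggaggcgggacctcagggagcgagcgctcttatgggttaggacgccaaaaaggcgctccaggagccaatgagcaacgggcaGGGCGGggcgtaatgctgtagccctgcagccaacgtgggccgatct

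Areg held a cyclic AMP element at bases 190 to 197, a GC box at bases 199 to 204 and a TATA box at bases 220 to 225, counted from 1 at the first base shown, and these did not overlap. Of 32851 promoters in the same window, 1.48% held the cyclic AMP element, 31.8% the GC box and 12.2% the TATA box. Lrig1 held a GC box at bases 89 to 94, which 14.5% of promoters held in its window. None of these letters was in the Egfr window, and this says nothing of the factors that bind there. No protein binding was measured.

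**Figure D1:**
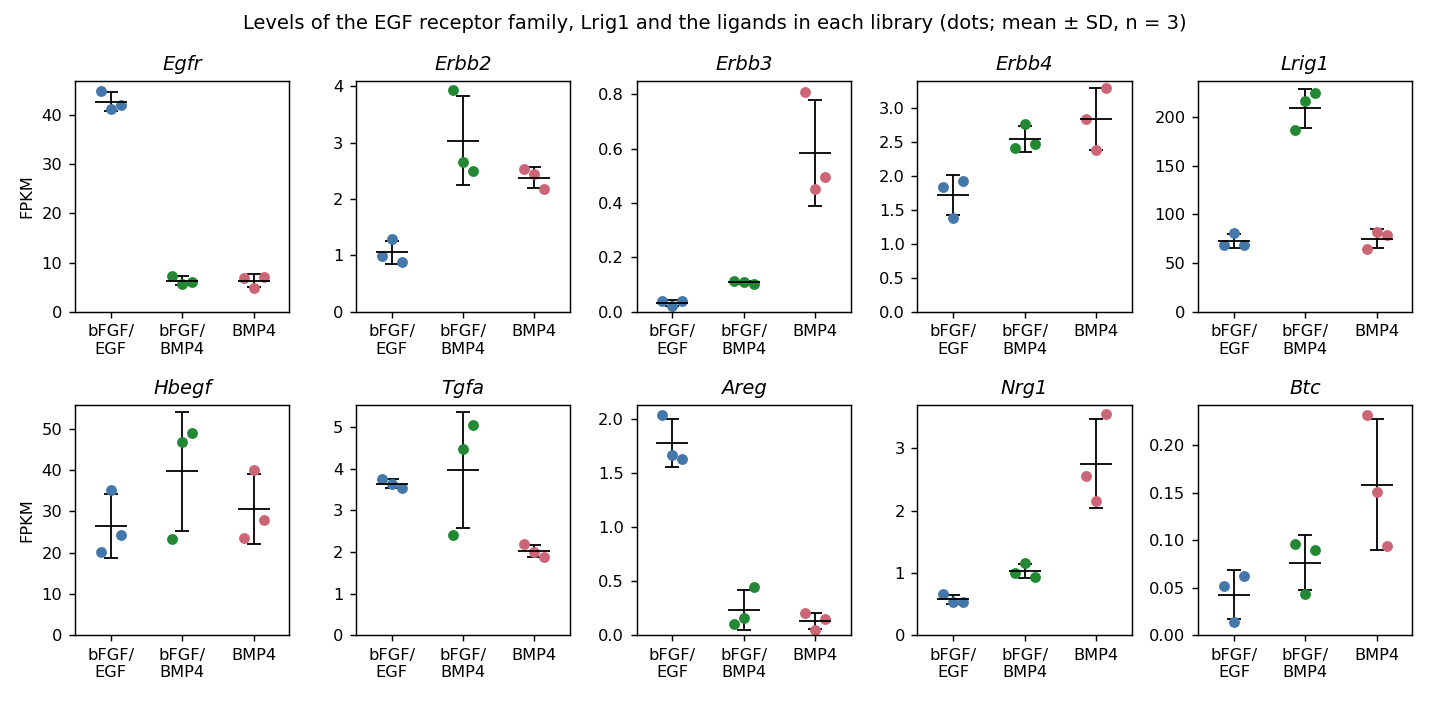
FPKM (vertical axes, linear, each from 0) of the 10 members in the 3 libraries of each group (dots), with the mean and SD as bars. Egfr and Areg were highest in bFGF/EGF, Lrig1 in bFGF/BMP4, and Erbb3 and Nrg1 in BMP4, each without overlap with the other groups.

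Egfr, the receptor for EGF, was the most abundant of the 4 receptors in every library and fell in both day 6 groups. Its locus is on chromosome 11 (16702198 to 16868158, plus strand, GRCm39; ENSMUSG00000020122). It stood at 44.9, 41.2 and 42.1 FPKM in the bFGF/EGF libraries, at 7.31, 5.62 and 6.03 in bFGF/BMP4, and at 6.96, 4.91 and 7.14 in BMP4. All bFGF/EGF libraries were far above the other 6, and the day 6 groups overlapped. The log2 fold change was -2.75 (SE 0.16, adjusted p = 8.9e-07) in bFGF/BMP4 and -2.75 (SE 0.16, adjusted p = 6.3e-07) in BMP4, or 6.71 and 6.74 times lower. Between BMP4 and bFGF/BMP4 the log2 difference was -0.01, with a 95% interval of -0.37 to 0.35 (adjusted p = 0.99).

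Erbb2, the partner receptor without a ligand, rose in both. It is on chromosome 11 (98303203 to 98328542, plus strand; ENSMUSG00000062312). Its level was 0.994, 1.29 and 0.891 FPKM in bFGF/EGF, 3.94, 2.65 and 2.51 in bFGF/BMP4, and 2.53, 2.44 and 2.18 in BMP4. All 6 day 6 libraries were above all bFGF/EGF libraries. The log2 fold change was 1.42 (SE 0.22, adjusted p = 0.00041) in bFGF/BMP4 and 1.11 (SE 0.22, adjusted p = 0.0016) in BMP4, and the difference between these media was -0.31 (95% interval -0.79 to 0.17, adjusted p = 0.38). With a pseudocount of 1 the changes were 0.96 and 0.72, short of 2-fold.

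Erbb4, a neuregulin receptor, is on chromosome 1 (68071345 to 69147619, minus strand; ENSMUSG00000062209). It gave 1.84, 1.38 and 1.92 FPKM in bFGF/EGF, 2.41, 2.76 and 2.47 in bFGF/BMP4, and 2.84, 2.38 and 3.30 in BMP4. The day 6 libraries were all above the bFGF/EGF libraries by less than 2-fold, with log2 fold changes of 0.56 (SE 0.19, adjusted p = 0.033) and 0.70 (SE 0.19, adjusted p = 0.0099). They overlapped each other, and the log2 difference between them was 0.14 (95% interval -0.28 to 0.56).

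Erbb3, the neuregulin receptor with little kinase activity, was the least abundant receptor and rose in BMP4. Its locus is on chromosome 10 (128403392 to 128425811, minus strand; ENSMUSG00000018166). It gave 0.0391, 0.0210 and 0.0376 FPKM in bFGF/EGF, 0.114, 0.108 and 0.102 in bFGF/BMP4, and 0.809, 0.452 and 0.494 in BMP4. These rest on 10, 30 and 172 fragments in all, and the 3 groups did not overlap. The log2 fold change in BMP4 was 2.34 (SE 0.34, adjusted p = 0.00023) against bFGF/EGF and 1.68 (SE 0.34, adjusted p = 0.0055) against bFGF/BMP4. Because the pseudocount understates the change of so low a gene, the ratio of scaled fragments is given too: BMP4 was 17.7 times bFGF/EGF (95% interval 9.42 to 37.7) and 5.4 times bFGF/BMP4 (3.65 to 8.25), where the intervals cover counting error only. Between bFGF/BMP4 and bFGF/EGF the log2 difference of 0.65 was not called (SE 0.34, adjusted p = 0.14), but limma-voom on the recovered fragments gave 1.51 and called it (adjusted p = 0.038). With a pseudocount of 1 both BMP4 changes were under 2-fold (0.61 and 0.51).

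Erbb3 is also carried by cells of the oligodendrocyte line. The summed FPKM of 6 precursor markers was 1560 to 2260 in bFGF/EGF, 1310 to 1800 in bFGF/BMP4 and 216 to 423 in BMP4. Olig1 (1350 ± 240, 1250 ± 190 and 275 ± 89 FPKM) and Olig2 (565 ± 110, 246 ± 68 and 31.7 ± 16) made up most of it. Against bFGF/EGF, 5 of the 6 were called lower in bFGF/BMP4 and 6 in BMP4, beside 14.1% and 15.4% of all genes tested. In BMP4 against bFGF/BMP4 only Olig1 and Olig2 were called lower, beside 5.14%. Sox10 was at 0 fragments in all day 6 libraries. The part of these cells in the Erbb3 result was not tested.

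Summed over the 4 receptors, the bFGF/EGF libraries had 45.6 ± 2.0 FPKM, against 12 ± 1.5 for bFGF/BMP4 and 12.1 ± 1.7 for BMP4 (SD, n = 3). Egfr made up 93.8% ± 0.17 of it in bFGF/EGF, and 52.6% ± 2.0 and 51.9% ± 3.3 of it in the bFGF/BMP4 and BMP4 groups. Erbb2 went from 2.33% in bFGF/EGF to 25.0% in bFGF/BMP4 and 19.9% in BMP4, and Erbb4 from 3.76% to 21.5% and 23.4%. Erbb3 made up 0.0711%, 0.905% and 4.79%. The order in bFGF/EGF was Egfr, Erbb4, Erbb2 and Erbb3 without overlap, whereas Erbb2 and Erbb4 overlapped in both day 6 groups. These shares are a description without a test.

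**Figure D2:**
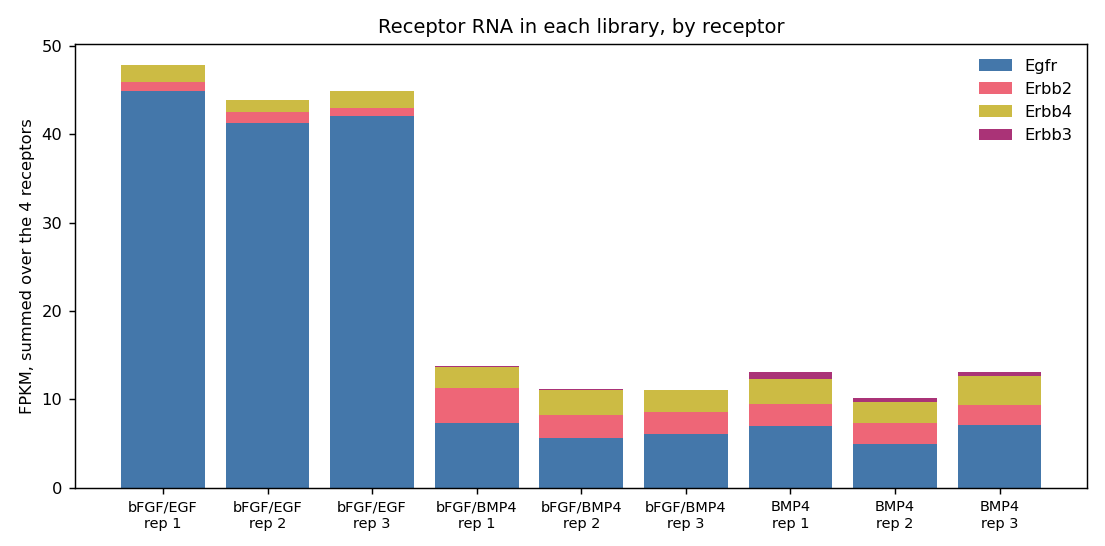
Stacked bars of FPKM (vertical axis, linear from 0) for Egfr, Erbb2, Erbb4 and Erbb3 in each of the 9 libraries. The bars of bFGF/EGF reach 43.9 to 47.8 and are nearly all Egfr, and those of the day 6 groups reach 10.2 to 13.8.

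Lrig1, the inhibitor of the receptors, rose in bFGF/BMP4, and in BMP4 its level was close to that of bFGF/EGF. It is on chromosome 6 (94581510 to 94677242, minus strand; ENSMUSG00000030029). It stood at 68.8, 81.3 and 68.1 FPKM in bFGF/EGF, at 187, 216 and 224 in bFGF/BMP4, and at 64.4, 81.8 and 79.2 in BMP4. The bFGF/BMP4 libraries were above all others, and the other groups overlapped. The log2 fold change was 1.52 (SE 0.14, adjusted p = 1.5e-05) for bFGF/BMP4 against bFGF/EGF and -1.48 (SE 0.14, adjusted p = 5.8e-05) for BMP4 against bFGF/BMP4. BMP4 against bFGF/EGF gave 0.04, with a 95% interval of -0.27 to 0.35 (adjusted p = 0.81), and its sign changed with the scaling (-0.04 on the TPM scale). The exons of Lrig1 share 1475 bases with those of Slc25a26 on the opposite strand, whose mean level was 2.26 FPKM, and the strand setting of the counting is not given in the sources used here.

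The ratio of Lrig1 to Egfr within a library does not depend on library scaling. It was 1.53, 1.97 and 1.62 in bFGF/EGF, 25.5, 38.5 and 37.2 in bFGF/BMP4, and 9.25, 16.7 and 11.1 in BMP4. The groups did not overlap. The mean log2 ratio was 4.27 higher in bFGF/BMP4 and 2.80 higher in BMP4 than in bFGF/EGF, and BMP4 differed from bFGF/BMP4 by -1.47. An exact two-sided permutation test gave p = 0.1 in each of the 3 comparisons, without adjustment for their number. This is the smallest value that 3 libraries against 3 can give.

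**Figure D3:**
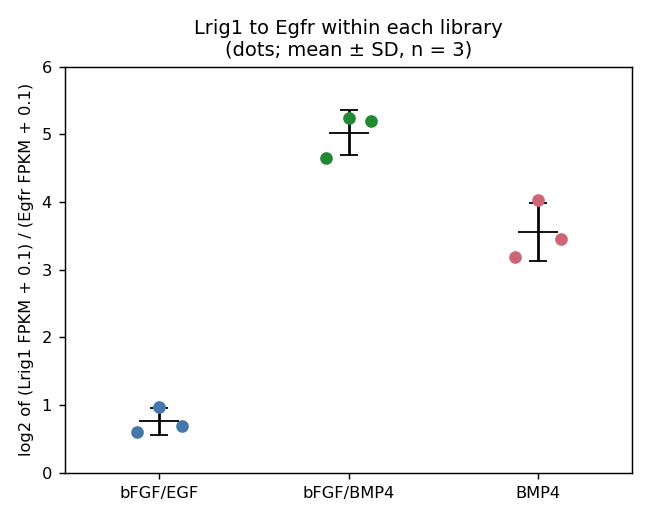
log2 of the ratio of Lrig1 to Egfr, each as FPKM + 0.1 (vertical axis), in the 3 libraries of each group (dots), with the mean and SD as bars. The means of bFGF/EGF, bFGF/BMP4 and BMP4 are 0.76, 5.03 and 3.56, and no library of a group reaches the range of another.

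Hbegf, the gene of heparin-binding EGF-like growth factor, was the most abundant of the 5 ligands in every library and was called in no comparison. Its locus is on chromosome 18 (36637980 to 36649677, minus strand; ENSMUSG00000024486). It gave 20.1, 35.2 and 24.4 FPKM in bFGF/EGF, 23.2, 46.9 and 49.1 in bFGF/BMP4, and 23.6, 40.1 and 28.0 in BMP4. All 3 groups overlapped. The log2 differences were 0.54 (95% interval -0.17 to 1.25, adjusted p = 0.19), 0.21 (-0.50 to 0.91, adjusted p = 0.61) and -0.34 (-1.04 to 0.37, adjusted p = 0.53) for bFGF/BMP4 against bFGF/EGF, BMP4 against bFGF/EGF and BMP4 against bFGF/BMP4. A change of 2-fold lies within the first and the last of these intervals. Its exons share 831 bases with those of Gm41698 on the opposite strand, which was not analysed here.

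Tgfa, the gene of TGF-alpha, was lower in BMP4 by less than 2-fold. It is on chromosome 6 (86172041 to 86252728, plus strand; ENSMUSG00000029999). It stood at 3.75, 3.63 and 3.54 FPKM in bFGF/EGF, at 2.41, 4.46 and 5.05 in bFGF/BMP4, and at 2.18, 2.01 and 1.89 in BMP4. The BMP4 libraries were below all others, and bFGF/BMP4 spread on both sides of bFGF/EGF. The log2 difference of BMP4 was -0.82 (SE 0.24, adjusted p = 0.016) from bFGF/EGF and -0.87 (SE 0.24, adjusted p = 0.029) from bFGF/BMP4. Without bFGF/BMP4 replicate 1, the lowest library of its group, the latter was -1.19 and past both thresholds (adjusted p = 0.00097).

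Areg, the gene of amphiregulin, fell in both media to a few fragments. Its locus is on chromosome 5 (91287451 to 91296291, plus strand; ENSMUSG00000029378). It gave 2.03, 1.67 and 1.63 FPKM in bFGF/EGF, 0.103, 0.161 and 0.448 in bFGF/BMP4, and 0.203, 0.0508 and 0.150 in BMP4, from 109, 13 and 8 fragments in all. All bFGF/EGF libraries were above the other 6. The log2 fold change was -2.61 (SE 0.42, adjusted p = 0.00058) in bFGF/BMP4 and -3.05 (SE 0.42, adjusted p = 0.00016) in BMP4. By scaled fragments it was 7.66 times lower (95% interval 4.3 to 14.8) and 13.2 times lower (6.47 to 31.4), where the intervals cover counting error only. Between the day 6 groups, 13 against 8 fragments did not allow a difference to be seen (log2 difference -0.45, 95% interval -1.38 to 0.49).

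Nrg1, the gene of neuregulin 1, rose in BMP4. It is on chromosome 8 (32303906 to 33374825, minus strand; ENSMUSG00000062991). It stood at 0.663, 0.533 and 0.535 FPKM in bFGF/EGF, at 0.996, 1.15 and 0.943 in bFGF/BMP4, and at 2.56, 2.16 and 3.54 in BMP4, and the 3 groups did not overlap. The log2 fold change in BMP4 was 2.05 (SE 0.23, adjusted p = 3.8e-05) against bFGF/EGF and 1.31 (SE 0.23, adjusted p = 0.0023) against bFGF/BMP4. The latter was 0.87 with a pseudocount of 1. bFGF/BMP4 was higher than bFGF/EGF by 0.74 (SE 0.23, adjusted p = 0.021), under 2-fold. Neurons also carry Nrg1, and the 6 markers of neurons and neuroblasts summed to 32.6 to 36.8 FPKM in bFGF/EGF, 22.2 to 29.2 in bFGF/BMP4 and 110 to 187 in BMP4. Of these markers 5 were tested, and they did not move one way. Tubb3, a tubulin gene, rose in BMP4 to 145 ± 40 FPKM, from 20.3 ± 4.0 in bFGF/EGF and 17 ± 3.3 in bFGF/BMP4, and made up most of the sum. Dcx, a neuroblast marker, averaged 0.187 ± 0.067, 0.116 ± 0.0082 and 0.904 ± 0.94 FPKM, and was called higher in BMP4 with 1 library at 1.99. Syt1, a synaptic vesicle gene, was called lower than in bFGF/EGF in both day 6 groups (3.83 ± 0.44, 0.137 ± 0.08 and 0.371 ± 0.22 FPKM). Rbfox3, a gene of mature neurons, was called lower in BMP4 (0.522 ± 0.20 FPKM) than in bFGF/BMP4 (1.57 ± 0.24), and Elavl3 was called in no comparison (8.73 ± 1.7, 7 ± 0.54 and 8.9 ± 2.1). The part of such cells in the Nrg1 result was not tested.

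Btc, the gene of betacellulin, was too low to be tested, with a mean under 0.1 FPKM. Its locus is on chromosome 5 (91505120 to 91550883, minus strand; ENSMUSG00000082361). It had 4, 1 and 5 fragments in the bFGF/EGF libraries, 7, 3 and 6 in bFGF/BMP4, and 17, 11 and 7 in BMP4. BMP4 lay above bFGF/EGF without overlap and overlapped bFGF/BMP4. When all genes above 0 were tested, the log2 difference of BMP4 from bFGF/EGF was 0.84 (SE 0.29, adjusted p = 0.052), which was not past the threshold.

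The 5 ligands summed to 32.6 ± 7.5 FPKM for bFGF/EGF, 45.0 ± 16 for bFGF/BMP4 and 35.7 ± 8.0 for BMP4, and these ranges overlapped. Hbegf made up 80.7% ± 5.1, 87.9% ± 1.2 and 85.1% ± 4.4 of the sum. Tgfa made up 11.6%, 8.84% and 5.90%, Areg 5.70%, 0.497% and 0.421%, and Nrg1 1.85%, 2.53% and 8.09%.

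Of the 10 members, 9 passed the filter on low values. In bFGF/BMP4 against bFGF/EGF, 2 of 9 were called higher (Erbb2, Lrig1) and 2 lower (Egfr, Areg), where 16.5% of all genes tested were called higher and 14.1% lower. In BMP4 against bFGF/EGF, 3 were called higher (Erbb2, Erbb3, Nrg1) and 2 lower (Egfr, Areg), beside 21.3% and 15.4% of all genes. In BMP4 against bFGF/BMP4, 2 were called higher (Erbb3, Nrg1) and 1 lower (Lrig1), beside 8.41% and 5.14%. The median log2 difference of the 9 was 0.56, 0.21 and -0.31, beside 0.06, 0.10 and 0 over all genes tested. No test set these counts against those of all genes. Any 2 of the comparisons share a group of libraries.

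**Figure D4:**
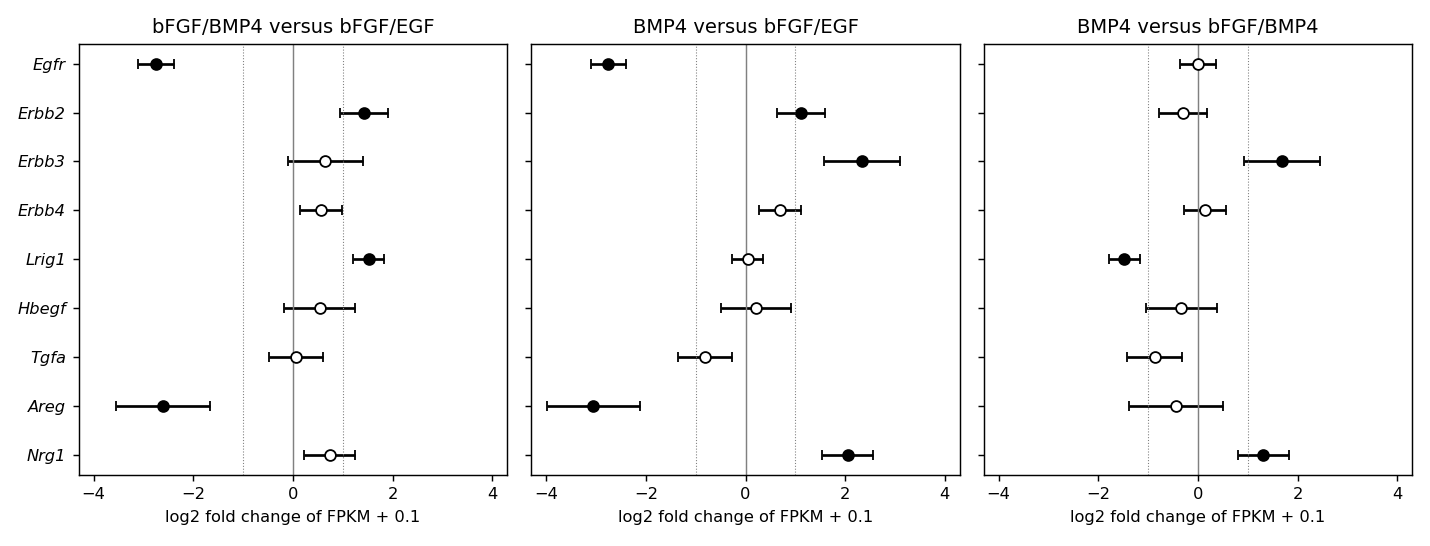
log2 fold change of FPKM + 0.1 (horizontal axes) of the 9 tested members in the 3 comparisons, with 95% intervals from limma. Filled points passed an adjusted p of 0.05 and 2-fold (dotted lines), and Egfr lies at -2.75 in both comparisons with bFGF/EGF and at -0.01 between the day 6 groups.

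The rest of the pathway was described through 80 further genes, of which 76 were tested. In bFGF/BMP4 against bFGF/EGF, 6 of them were higher and 13 lower, beside 16.5% and 14.1% of all genes tested. In BMP4 against bFGF/EGF the counts were 7 and 20, beside 21.3% and 15.4%. In BMP4 against bFGF/BMP4 they were 3 and 14, beside 8.41% and 5.14%. These shares of all genes stand beside the counts of each list below too, and no test compared them. Among 6 other ligands 3 were tested, and Nrg2, a further neuregulin gene, rose from 2.83 ± 0.39 FPKM to 6.59 ± 1.4 in bFGF/BMP4 and 8.82 ± 2.2 in BMP4 (log2 fold change 1.18 and 1.58).

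Among 9 genes of ligand shedding, by which membrane proteases release HB-EGF and its relatives, 8 were tested. Adam19 fell from 10.2 ± 1.9 FPKM to 0.356 ± 0.021 in bFGF/BMP4 and 0.738 ± 0.097 in BMP4. Adam12 fell in BMP4 to 2.51 ± 0.45 FPKM, from 44.2 ± 2.6 in bFGF/EGF and 52.3 ± 13 in bFGF/BMP4. These were the only 2 of the 8 that were called in any comparison.

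Among 17 genes of receptor turnover and inhibition, 4 were higher and 1 lower in bFGF/BMP4 than in bFGF/EGF. Lrig3, the relative of Lrig1, was at 0.462 ± 0.11 FPKM in bFGF/EGF and rose to 2.56 ± 0.20 in bFGF/BMP4 and 1.36 ± 0.32 in BMP4. Ptprj, a receptor phosphatase, was at 11.1 ± 0.40 FPKM in bFGF/EGF, rose to 41.5 ± 4.0 in bFGF/BMP4 and was at 7.04 ± 1.5 in BMP4, lower than in bFGF/BMP4. Socs3, a cytokine-induced inhibitor, fell from 2.69 ± 0.70 FPKM in bFGF/EGF to 0.622 ± 0.032 in bFGF/BMP4. In BMP4 it was at 3.14 ± 0.87, higher than in bFGF/BMP4 and not called against bFGF/EGF (log2 difference 0.21, adjusted p = 0.52). Eps15, an endocytic adaptor, rose from 8.96 ± 2.2 FPKM to 18.5 ± 0.87 in bFGF/BMP4 and 34.1 ± 2.4 in BMP4. In BMP4 against bFGF/EGF 2 genes of the list were higher and 1 lower, and in BMP4 against bFGF/BMP4 1 was higher and 1 lower.

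Among 20 adaptors and early effectors, none was called higher by limma in any of the 3 comparisons, and 3, 4 and 1 were lower. At an adjusted p of at most 0.05 without the fold threshold, 4, 6 and 2 of the 20 were higher and 7, 9 and 5 lower. At an unadjusted p under 0.05, 4, 6 and 5 were higher, and limma-voom with both thresholds called 0 higher. Eps8, a substrate of the receptor, went from 5.57 ± 0.42 FPKM to 1.85 ± 0.093 in bFGF/BMP4 and 1.21 ± 0.11 in BMP4. Pik3cb, a catalytic PI3-kinase subunit, went from 3.65 ± 0.51 to 1.27 ± 0.33 and 1.66 ± 0.18. Shc3, an adaptor, was at 33.3 ± 0.26, 21.4 ± 2.0 and 5.32 ± 3.6 FPKM and was called in both comparisons of BMP4. Of 13 genes of the RAS-ERK cascade, 1 was called higher and 1 lower in bFGF/BMP4 than in bFGF/EGF. In BMP4 4 were higher and 0 lower than in bFGF/EGF, and 1 was higher and 0 lower than in bFGF/BMP4. Map2k1, which encodes the kinase MEK1, rose from 39.3 ± 7.3 FPKM to 79.4 ± 11 and 106 ± 11. Nras fell in bFGF/BMP4 from 33.0 ± 0.85 to 12 ± 1.0, and was at 19.6 ± 0.56 in BMP4. Rras2 was at 4.61 ± 0.61, 2.56 ± 0.37 and 13.1 ± 3.8 FPKM and was called higher in both comparisons of BMP4.

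Of 15 genes that ERK signalling is known to induce, 7 were lower and 0 higher in bFGF/BMP4 than in bFGF/EGF, with a median log2 difference of -0.76. In BMP4 13 were lower and 0 higher than in bFGF/EGF (median -3.96), and 11 were lower and 1 higher than in bFGF/BMP4 (median -1.72). In the comparisons with bFGF/EGF, 0 of the 15 were higher in limma at an unadjusted p under 0.05 or called higher by limma-voom. Ccnd1, the gene of cyclin D1, fell from 523 ± 48 FPKM in bFGF/EGF to 9.13 ± 3.5 in bFGF/BMP4 and 2.91 ± 0.37 in BMP4. Egr1, an immediate early gene, fell from 41.8 ± 14 to 2.44 ± 1.3 in bFGF/BMP4. Etv4, an ETS factor gene, was at 36.9 ± 4.4 FPKM in bFGF/EGF and 36.1 ± 0.92 in bFGF/BMP4, and fell in BMP4 to 0.657 ± 0.30. Dusp6, an ERK phosphatase, was at 116 ± 39, 84.9 ± 41 and 2.63 ± 0.84 FPKM and was called lower in both comparisons of BMP4. The BMP4 medium also lacked bFGF, and Egfr was at 6.32 ± 0.88 FPKM in bFGF/BMP4 and 6.34 ± 1.2 in BMP4. Which receptors the changes of these 15 genes go back to was not tested.

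**Figure D5:**
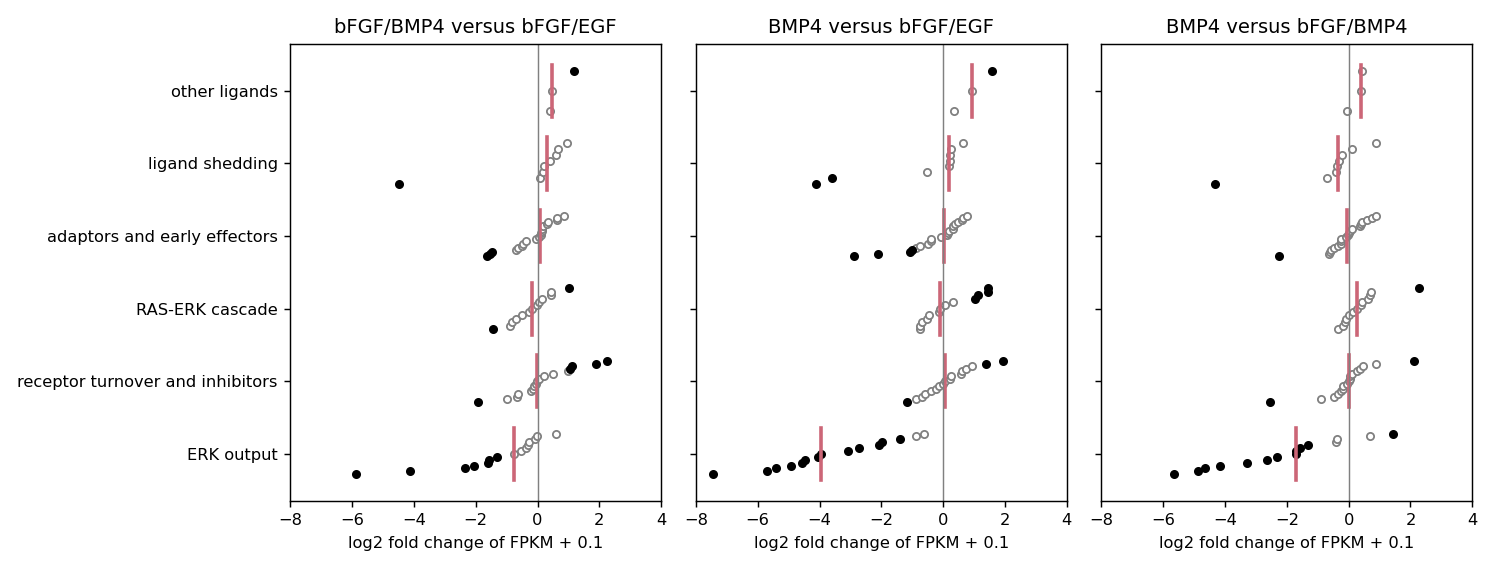
log2 fold change of FPKM + 0.1 (horizontal axes) of the 76 tested pathway genes by list, in the 3 comparisons. Filled points passed an adjusted p of 0.05 and 2-fold, and a coloured bar marks the median of each list, which for ERK output is -0.76, -3.96 and -1.72.

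The genes most like Egfr and Lrig1 in pattern were taken by Pearson's r of log2(FPKM + 0.1) over the 9 libraries, which fall into the 3 groups, among 7455 protein-coding genes with a mean of at least 5 FPKM. For Egfr these were Arhgef2 (r = 0.995), Impdh1, Zfp365, Lsm14b (0.994 each) and Smarcc1 (0.992). Zfp365 averaged 62.0, 11.8 and 12.5 FPKM in bFGF/EGF, bFGF/BMP4 and BMP4. For Lrig1 they were Rasl10b (r = 0.992), Olfm2 (0.989), Ctxnd1 (0.988), Lhx2 (0.987) and Pla2g3 (0.986). Olfm2 averaged 177, 489 and 202 FPKM, and Pla2g3 1.87, 30.9 and 2.11.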

How the data were processed

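Bulk RNA-seq covered 9 libraries. Per the labels and the submitters' processing notes, paired-end reads were processed with fastp 0.19.7, HISAT2 2.0.5 (mm39) and featureCounts 1.5.0-p3. The authors compared groups with DESeq2, and deposited FPKM values with 1 column per library. The annotation release, strand setting and FPKM scaling are not given in the sources used here. Of 55414 Ensembl identifiers, 54749 were found in GENCODE vM39. Fragment numbers were recovered from the FPKM steps for all 30860 genes above 0 (whole to within 0.05), and the authors' library divisor was 0.918 to 1.072 times the fragments on genes.

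R 4.3.3 with limma 3.58.1 (trend, all 9 libraries, Benjamini-Hochberg over 20207 genes) and Python 3.11.15 with scipy 1.17.1 were used. The method was tested on simulated data, where it recovered changes in genes with a mean of at least 1 FPKM more often than in lower genes. The named genes were all members, the 2 genes of each list with the largest called change per comparison (mean FPKM of at least 1), and the 5 genes most correlated with Egfr and with Lrig1. The cell type markers named in the text are outside this rule and were chosen after their values were seen. The members and lists were chosen with earlier results of these data known. The alternatives were other pseudocounts, filters, scalings and thresholds, limma-voom, a replicate block, and each library left out. Mature oligodendrocyte markers are not reported here.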

Additional observations from a re-analysis of the deposited data

How the results depend on the processing

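The number of members called changed by over 1.5 times under 2 alternatives. A pseudocount of 1 left 3 called members for BMP4 against bFGF/EGF and 1 for BMP4 against bFGF/BMP4, and a filter at a mean of 1 FPKM left 3 for BMP4 against bFGF/EGF, with 7 members tested. Leaving out each library in turn gave 4, 5 and 3 to 4 members called. Over all genes, a pseudocount of 1 gave 3544, 4364 and 1449 calls, no fold threshold gave 9819 (bFGF/BMP4 against bFGF/EGF) and 4271 (BMP4 against bFGF/BMP4), and the filter at 1 FPKM gave 1800 for BMP4 against bFGF/BMP4. With no fold threshold 40, 53 and 29 pathway genes were called. On fragments in place of FPKM, the Egfr share of the receptors was 94.7%, 59.8% and 58.2%.

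Uncalled differences near 0 changed sign. Tgfa in bFGF/BMP4 against bFGF/EGF was -0.06 with limma-voom, -0.06 without bFGF/BMP4 replicate 2 and -0.15 without bFGF/BMP4 replicate 3, in a range of -0.15 to 0.37 over the libraries left out. Lrig1 in BMP4 against bFGF/EGF was -0.04 on the TPM scale, -0.05 with limma-voom, 0 without bFGF/EGF replicate 3 and -0.02 without BMP4 replicate 2 (range -0.05 to 0.15 over all alternatives). Hbegf in the same comparison was -0.01 without BMP4 replicate 2 and up to 0.43 without bFGF/EGF replicate 2. Egfr in BMP4 against bFGF/BMP4 was 0.01 with limma-voom, 0.10 without bFGF/BMP4 replicate 1 and 0.16 without BMP4 replicate 2, with a lowest value of -0.10 without BMP4 replicate 3. The cause was not tested.

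The replicate block gave 4, 5 and 3 called members and 6127, 7383 and 2612 calls over all genes, and changed no call of a member. Deviations of libraries with the same number correlated at -0.084 to 0.125, and libraries did not all correlate best with their own number, so the numbers were not taken to pair the libraries. Erbb3, Areg and Btc are limited by their few fragments.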
